A study of Glycine max with 72 samples.

Results

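Glyma.05G247900 and Glyma.08G056400 are the 2 soybean genes that the study annotates as PAP17, a purple acid phosphatase of phosphate homeostasis. They were selected by gene identifier and are 2 of the 56044 genes counted in the series. Transcripts were measured by mRNA sequencing in seeds of 8 lines at 3 stages of germination, with 3 samples of 10 seeds per line and stage, 72 libraries in all. Stage 1 was the mature dry seed, stage 2 the seed imbibed for 8 h and stage 3 the germinated seed with an emerged radicle. The 3 low phytic acid (lpa) lines were 1mlpa, with the mips1 mutation, 2mlpa, with mrp-l and mrp-n, and 3mlpa, with mips1, mrp-l and mrp-n. Their normal phytic acid sister lines were 1MWT, with no mutation, for 1mlpa, 3MWT, with no mutation, for 3mlpa, and 3 lines for 2mlpa, namely 2MWT-L, with mrp-n only, 2MWT-N, with mrp-l only, and 2MWT, with no mutation. The pairs are the Mips and Mips-MRP subsets and the set of 4 lines is the MRP subset. Within a subset each genotype was 1 line, so any other difference between its sister lines cannot be told apart from the mutations. The Mips library names are ambiguous between the sister lines and their parents, and these libraries were placed by the MIPS1 genotype on their labels.

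Purple acid phosphatases are metal-containing enzymes that release inorganic phosphate from phosphate esters. In Arabidopsis, PAP17 transcripts accumulate when phosphate is scarce, and the encoded protein also has peroxidase activity. Phytic acid is the main store of phosphorus in seeds. MIPS1 encodes the enzyme of the first step toward it, and the 2 MRP genes encode transporters that move it into storage. Seeds that make or store less phytic acid hold more free phosphate.

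Glyma.05G247900 lies on the minus strand of chromosome 5 between 42109945 and 42112794 of Wm82.a2.v1, with 2500 bases of exon. Glyma.08G056400 lies on the minus strand of chromosome 8 between 4330055 and 4332640, with 1945 bases of exon. The 2 gene models share 5 exon lengths, of 68, 108, 128, 129 and 157 bases, and no other gene model overlaps either of them. Read pairs that mapped to more than 1 place were not counted, so reads common to both genes are missing from both. Of the 5 genes on each side of each PAP17 gene, only 6 or 7 of the 10 had enough counts to be tested. Over the 15 comparisons of an lpa line with a normal line, a neighbour of Glyma.05G247900 was called lower 1 time and higher 4 times in 93 tests by the edgeR test described below, and a neighbour of Glyma.08G056400 was called higher 5 times and never lower in 90 tests. Over all genes, 0.246% to 4.03% were called lower and 0.258% to 4.54% higher in these comparisons.

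Library totals lay between 20295984 and 39759526 counts in 71 libraries, with a median of 28412327. Replicate 1 of 2MWT-N at stage 2 held only 12679 counts, 0 of them from either PAP17 gene. It was kept in the fits, and means of that group are of the other 2 libraries. Levels are given as CPM, the counts per 1000000 counts of the library total after scaling by the trimmed mean of M-values (TMM). A differentially expressed gene (DEG) had an adjusted p (FDR) under 0.01 in edgeR's quasi-likelihood test and a log2 fold change over 1 in either direction. The mutated genes carry point mutations, so their levels do not check the labels. MIPS1 (Glyma.11G238800) was a DEG higher in 1mlpa than in 1MWT at stage 1, by 2.5 on the log2 scale (SE 0.33, adjusted p = 3.53e-05), and at stage 2, by 1.65 (SE 0.32, adjusted p = 0.00251). The MRP genes, Glyma.19G169000 (MRP-L) and Glyma.03G167800 (MRP-N), did not pass the test in any comparison of 2mlpa with its 3 normal lines (adjusted p at least 0.0214).

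In dry seeds both genes were close to the limit of detection in every line. Glyma.05G247900 had 0 to 5 counts in the 9 lpa libraries and 0 to 6 counts in the 15 normal libraries, and was at 0 in 4 of the lpa and 10 of the normal libraries. Glyma.08G056400 had 1 to 17 counts in lpa libraries and 0 to 25 counts in normal libraries, which is 0.0580 to 1.62 CPM in lpa and 0 to 2.31 CPM in normal libraries. The ranges overlapped, and neither gene passed the test in any of the 5 lpa comparisons of stage 1 (adjusted p at least 0.124 for Glyma.05G247900 and 0.0585 for Glyma.08G056400). Of all genes, 8.37% were DEGs in either direction in 1mlpa against 1MWT, 3.95% in 3mlpa against 3MWT, and 7.11%, 2.27% and 2.18% in 2mlpa against 2MWT-L, 2MWT-N and 2MWT. At such counts only a large difference could have been detected.

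From stage 2 the lpa and the normal lines no longer overlapped. The highest Glyma.05G247900 level among the 9 lpa libraries of stage 2 was 0.680 CPM (1mlpa), and the lowest among the 14 normal libraries was 0.891 CPM (2MWT). At stage 3 these limits were 0.722 CPM in lpa and 0.817 CPM in normal libraries. For Glyma.08G056400 they were 0.971 CPM in lpa and 1.42 CPM in normal libraries at stage 2, and 2.20 CPM in lpa and 3.48 CPM in normal libraries at stage 3. Of 30186 genes tested in all 3 subsets, 0.229% had all lpa libraries below all normal libraries at stage 2 and 0.166% at stage 3, and 9 genes (0.0298%), the 2 PAP17 genes among them, did so at both stages. Both genes were DEGs lower in all 5 lpa comparisons at stage 2 and again at stage 3. Of the genes tested, 0.0265% met this at stage 2, 0.0133% at stage 3 and 0.0133% at both. The 3 comparisons of the MRP subset share the 2mlpa libraries, and the study named the 2 genes from these same libraries, so the direction is not independent evidence.

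**Figure D1:**
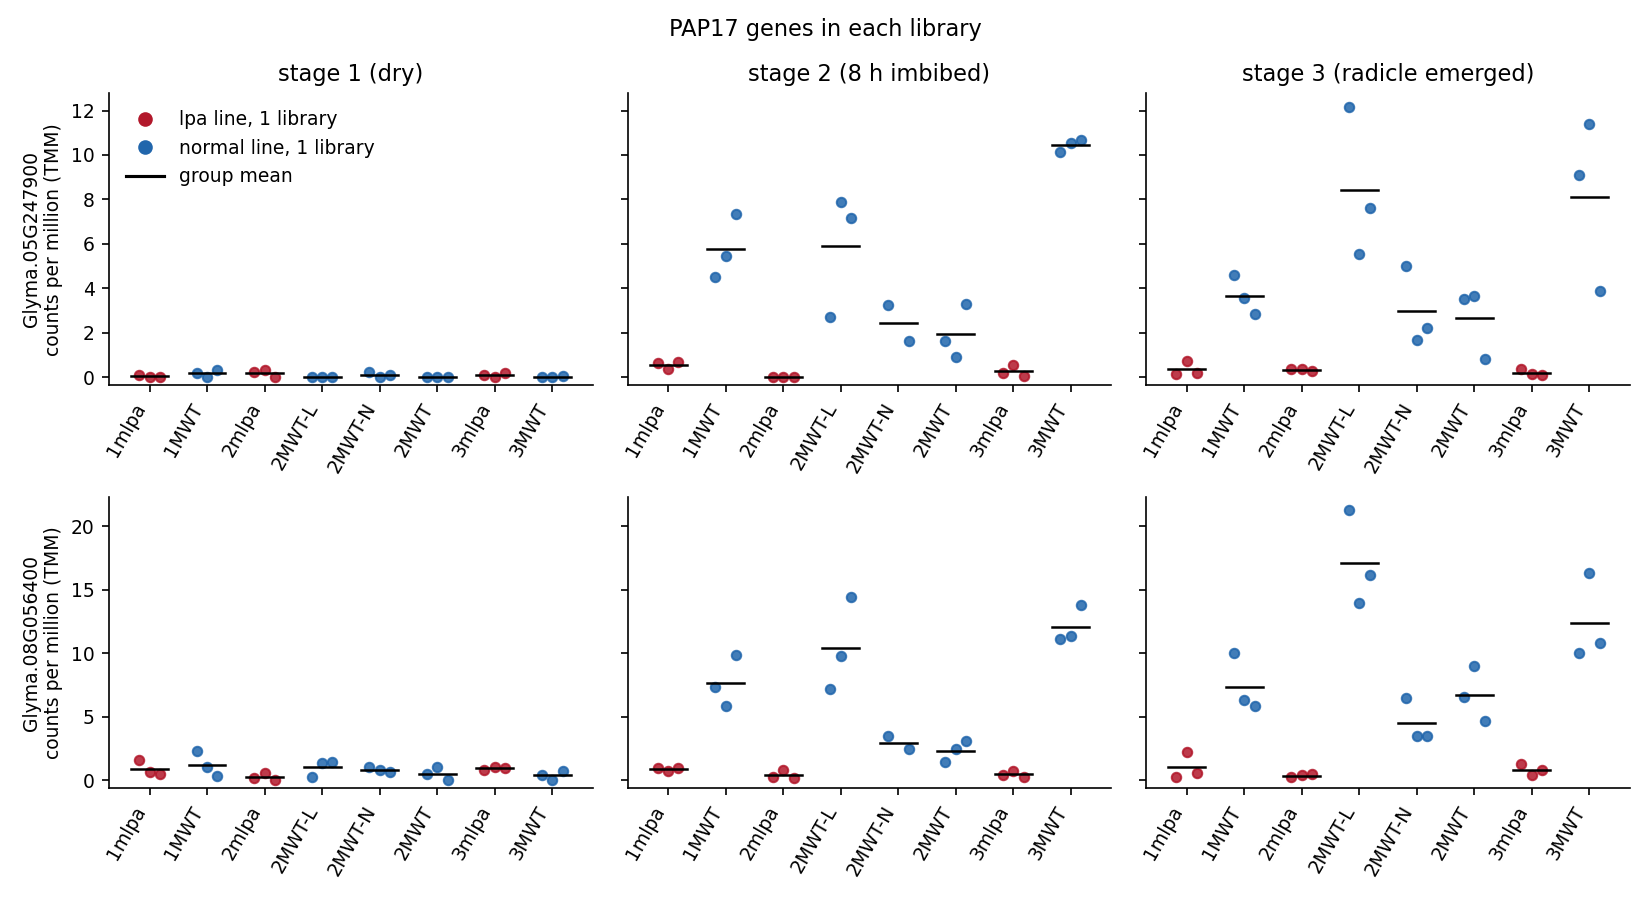
Levels of Glyma.05G247900 (top) and Glyma.08G056400 (bottom) in CPM with TMM scaling, 1 point per library, with group means as lines, at stages 1 to 3; the near-empty 2MWT-N library of stage 2 is left out. At stages 2 and 3 the lpa libraries (red) reach at most 0.722 CPM for Glyma.05G247900 and 2.20 CPM for Glyma.08G056400, below every normal library (blue) of the same stage.

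In the Mips subset, which sets the mips1 mutant against a line without mutations, both genes were lower in 1mlpa, by 7.18-fold to 10.5-fold. At stage 2 Glyma.05G247900 had 0.612, 0.368 and 0.680 CPM in the 3 libraries of 1mlpa, against 4.51, 5.46 and 7.34 CPM in those of 1MWT. The 3 libraries of each line lay close together and far from those of the other line. The log2 fold change was -3.39 (SE 0.50, adjusted p = 0.000312), in a comparison where 1.57% of all genes were DEGs lower in 1mlpa. Glyma.08G056400 had 0.933, 0.736 and 0.971 CPM in 1mlpa, against 7.36, 5.85 and 9.87 CPM in 1MWT, a log2 fold change of -3.13 (SE 0.59, adjusted p = 0.00197). At stage 3, where 0.641% of genes were DEGs lower in 1mlpa, Glyma.05G247900 had 0.156, 0.722 and 0.168 CPM in 1mlpa, against 4.58, 3.56 and 2.85 CPM in 1MWT. Glyma.08G056400 had 0.267, 2.20 and 0.547 CPM in 1mlpa, against 9.99, 6.31 and 5.84 CPM in 1MWT. Replicate 2 of 1mlpa was the highest lpa library for both genes. The log2 fold changes at stage 3 were -3.34 (SE 0.50, adjusted p = 0.000234) and -2.84 (SE 0.56, adjusted p = 0.00214), and without that replicate they were -4.45 and -4.14. The call of Glyma.08G056400 at stage 2 was lost without 1MWT replicate 3 or any single 1mlpa library (adjusted p 0.0105 to 0.0137, log2 fold change -2.91 to -3.18), and at stage 3 without 1MWT replicate 1 or 1mlpa replicate 1 or 3 (adjusted p 0.0110 to 0.0219, log2 fold change -2.41 to -2.56).

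In the Mips-MRP subset, which sets the triple mutant against a line without mutations, the difference was larger in value. At stage 2 Glyma.05G247900 had 0.164, 0.539 and 0.0664 CPM in 3mlpa, against 10.1, 10.6 and 10.7 CPM in 3MWT. The 3MWT level, 10.4 ± 0.284 CPM (SD, n = 3), was the highest mean of the gene in any group. Its log2 fold change was -5.34 (SE 0.60, adjusted p = 4.52e-05), where 0.425% of genes were DEGs lower in 3mlpa. Glyma.08G056400 had 0.411, 0.707 and 0.265 CPM in 3mlpa, against 11.1, 11.4 and 13.8 CPM in 3MWT, a log2 fold change of -4.70 (SE 0.54, adjusted p = 5.26e-05). At stage 3 Glyma.05G247900 had 0.361, 0.136 and 0.0934 CPM in 3mlpa, against 9.10, 11.4 and 3.86 CPM in 3MWT. Glyma.08G056400 had 1.30, 0.407 and 0.771 CPM in 3mlpa, against 10.0, 16.3 and 10.8 CPM in 3MWT. All 3 libraries of 3mlpa were far below those of 3MWT. The log2 fold changes at stage 3 were -5.33 (SE 0.60, adjusted p = 1.39e-05) and -3.89 (SE 0.50, adjusted p = 5.26e-05), where 0.754% of genes were DEGs lower. No single library decided a call in this subset, but the value of Glyma.05G247900 was -6.40 without 3mlpa replicate 2 at stage 2 and -6.10 without 3mlpa replicate 1 at stage 3.

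The effect in 1mlpa was smaller in size than that in 3mlpa, but the difference did not pass the test in 1 fit of both subsets. The Mips and Mips-MRP lines came from different crosses, so mutations and cross cannot be told apart in this contrast. For Glyma.05G247900 the 1mlpa effect minus the 3mlpa effect was 1.94 on the log2 scale at stage 2 (SE 0.79, adjusted p = 0.304) and 1.98 at stage 3 (SE 0.79, adjusted p = 0.431). For Glyma.08G056400 it was 1.55 (SE 0.81, adjusted p = 0.498) and 1.03 (SE 0.75, adjusted p = 0.892). Of all genes, 0.481% differed at stage 2 and 0.266% at stage 3. Between the normal lines, Glyma.05G247900 differed in 3MWT from 1MWT by 0.83 at stage 2 (SE 0.46, adjusted p = 0.519) and 1.15 at stage 3 (SE 0.46, adjusted p = 0.287), and Glyma.08G056400 by 0.63 (SE 0.50, adjusted p = 0.745) and 0.75 (SE 0.50, adjusted p = 0.747). None of the 4 passed the test, at which 1.73% of genes at stage 2 and 1.62% at stage 3 were DEGs.

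In the MRP subset Glyma.05G247900 was not detected in 2mlpa at stage 2. The counts were 0 in all 3 libraries of 2mlpa, against 98, 266 and 239 in 2MWT-L, 155 and 49 in 2MWT-N and 58, 28 and 117 in 2MWT. Every normal library of usual depth held the transcript. A count of 3 per library in 2mlpa would be on average 0.1 CPM, and against this floor the mean level was at least 59.0-fold lower in 2mlpa than in 2MWT-L, at least 24.3-fold lower than in 2MWT-N and at least 19.3-fold lower than in 2MWT (adjusted p = 2.67e-06, 0.000107 and 0.000119). Of the genes tested, 3.34% were DEGs lower than 2MWT-L, 0.379% than 2MWT-N and 0.686% than 2MWT, and 0.204% were lower than all 3 lines. At stage 3 the gene was detected again in 2mlpa, with 0.350, 0.341 and 0.265 CPM, against 12.2, 5.54 and 7.59 CPM in 2MWT-L, 5.01, 1.65 and 2.19 CPM in 2MWT-N and 3.5, 3.65 and 0.817 CPM in 2MWT. The log2 fold changes were -4.71 against 2MWT-L (SE 0.67, adjusted p = 7.75e-05), -3.19 against 2MWT-N (SE 0.64, adjusted p = 0.00729) and -3.03 against 2MWT (SE 0.64, adjusted p = 0.00491).

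Glyma.08G056400 kept a low level in 2mlpa at stage 2, with 0.263, 0.773 and 0.164 CPM, against 7.15, 9.79 and 14.4 CPM in 2MWT-L, 3.46 and 2.46 CPM in 2MWT-N and 1.42, 2.45 and 3.10 CPM in 2MWT. The log2 fold changes were -4.66 against 2MWT-L (SE 0.56, adjusted p = 1.31e-06), -2.84 against 2MWT-N (SE 0.58, adjusted p = 0.00499) and -2.49 against 2MWT (SE 0.55, adjusted p = 0.00674). At stage 3 it had 0.233, 0.387 and 0.481 CPM in 2mlpa, against 21.3, 14.0 and 16.2 CPM in 2MWT-L, 6.48, 3.48 and 3.52 CPM in 2MWT-N and 6.57, 8.98 and 4.67 CPM in 2MWT. The 2mlpa libraries were the lowest of the subset at both stages. The log2 fold changes were -5.53 (SE 0.56, adjusted p = 4.34e-08), -3.60 (SE 0.54, adjusted p = 8.09e-05) and -4.18 (SE 0.54, adjusted p = 7.90e-06) against 2MWT-L, 2MWT-N and 2MWT. At stage 3, 0.864%, 0.246% and 1.06% of genes were DEGs lower in these 3 comparisons, and 0.0957% in all of them.

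Several calls of the MRP subset rested on all libraries being present. Leaving out 2mlpa replicate 2, the highest of the 3, changed the log2 fold change of Glyma.08G056400 at stage 2 to -5.59 against 2MWT-L, -3.78 against 2MWT-N and -3.42 against 2MWT. Its call against 2MWT was lost without 2MWT replicate 2 or 3 or 2mlpa replicate 1 or 3 (adjusted p 0.0232 to 0.0667), and that against 2MWT-N without 2MWT-N replicate 2 or 3 or 2mlpa replicate 1 or 3 (adjusted p 0.0108 to 0.174). The call of Glyma.05G247900 at stage 3 against 2MWT was lost without 2MWT replicate 1 or 2 or any single 2mlpa library (adjusted p 0.0138 to 0.0458), and that against 2MWT-N without any single 2mlpa library, without 2MWT-N replicate 1 (log2 fold change -2.57, adjusted p = 0.0719) or without the near-empty library of stage 2 (adjusted p = 0.0113). Tested on the 6 libraries of each comparison alone, these 2 calls of stage 3 were also lost (adjusted p = 0.0399 and 0.0344). Where these calls were lost by leaving out a library, the log2 fold change lay between -2.12 and -3.26.

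**Figure D2:**
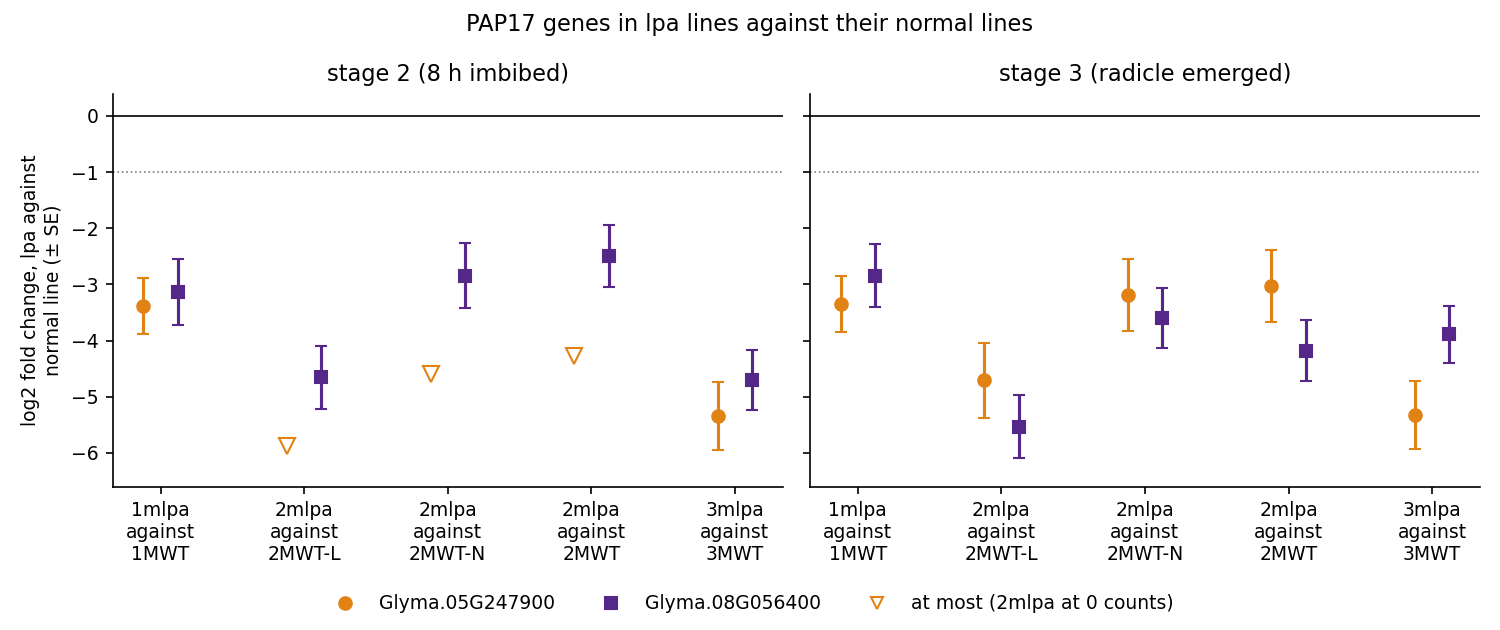
Log2 fold change of Glyma.05G247900 (orange) and Glyma.08G056400 (purple) in each lpa line against each of its normal lines at stages 2 and 3, with SE bars from the fit of each subset; open triangles mark upper limits where 2mlpa had 0 counts, and the dotted line is the threshold of a DEG. All points lie below -2, from -2.49 to -5.53 for Glyma.08G056400.

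The single mutants of the MRP subset did not have low levels. 2MWT-L, with mrp-n only, had the highest mean of Glyma.08G056400 in any group, 17.1 ± 3.73 CPM at stage 3 (SD, n = 3), and 2MWT-N, with mrp-l only, had 4.49 ± 1.72 CPM, against 6.74 ± 2.16 CPM in 2MWT. Against 2MWT, 2MWT-L was higher in value by 2.17 on the log2 scale at stage 2 (SE 0.47, adjusted p = 0.0192) and by 1.35 at stage 3 (SE 0.45, adjusted p = 0.0875) for this gene, and by 1.60 (SE 0.57, adjusted p = 0.175) and 1.67 (SE 0.56, adjusted p = 0.0967) for Glyma.05G247900. None of these passed the test, at which 0.201% of genes at stage 2 and 0.555% at stage 3 were DEGs. The differences of 2MWT-N from 2MWT were 0.35 (SE 0.51) and -0.58 (SE 0.45) for Glyma.08G056400 and 0.33 (SE 0.63) and 0.16 (SE 0.55) for Glyma.05G247900 at the same stages (adjusted p at least 0.736), where 0.115% and 0.214% of genes were DEGs.

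Between the dry and the imbibed seed both genes rose in all 5 normal lines, whereas in the lpa lines only Glyma.05G247900 in 1mlpa passed the test. Dry seeds were ground whole as far as the protocol says, whereas seed coats and radicles were removed at stages 2 and 3, so tissue and stage cannot be told apart here. The median over all genes shifted up by at most 0.34 on the log2 scale between stages 1 and 2 and by 0.27 to 0.44 between stages 1 and 3. With library totals in place of TMM these medians were 1.00 to 1.86 and 1.70 to 2.31. On that scale 20180 of 31787 genes were DEGs higher at stage 2 than at stage 1 in 1MWT. The medians and the shares of all genes that follow therefore hold for TMM scaling only. At stage 2, 28.8% of genes were DEGs higher than at stage 1 in 1MWT, 25.5% in 3MWT, 26.8% in 2MWT, 22.5% in 2MWT-N, 29% in 2MWT-L, 27.5% in 1mlpa, 18.1% in 2mlpa and 17.7% in 3mlpa, so a rise as such was common. Glyma.08G056400 was a DEG higher at stage 2 than at stage 1 in all 5 normal lines, with log2 fold changes of 2.83 in 1MWT, 4.97 in 3MWT, 2.06 in 2MWT, 1.85 in 2MWT-N and 3.34 in 2MWT-L. In 1mlpa, 2mlpa and 3mlpa its values were 0.08, 0.57 and -1.02, and none passed the test (adjusted p = 0.927, 0.545 and 0.167). At stage 3 it was a DEG higher than at stage 1 by 2.75 in 1MWT, 5.01 in 3MWT, 3.60 in 2MWT, 2.45 in 2MWT-N and 4.05 in 2MWT-L, where 35.7%, 33.2%, 31.9%, 31.2% and 35.1% of genes were, and did not pass in 1mlpa, 2mlpa and 3mlpa (0.29, 0.41 and -0.17), where 37.1%, 31.3% and 28.8% were. These lpa values depended on the scaling, since with library totals in place of TMM the stage 3 value was 2.14 and a call in 1mlpa and 1.41 in 3mlpa. Between stages 2 and 3 it rose further in 2MWT, by 1.53 (SE 0.46, adjusted p = 0.00714), a call made for 12.6% of genes, and did not pass in 1MWT, 3MWT, 2MWT-N and 2MWT-L, where 12.5%, 9.23%, 12.3% and 12% of genes were DEGs higher.

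Glyma.05G247900 was nearly absent from dry seeds, so its rise is a lower limit in several lines. Relative to a floor of 3 counts per dry-seed library it was at least 26.3-fold higher at stage 2 in 2MWT-L and at least 9.18-fold higher in 2MWT. In 3MWT 1131 counts at stage 2 faced 1 count at stage 1, a ratio of 487 (exact 95% interval of counting error 87.2 to 19257). In 1MWT the log2 fold change was 5.05 (SE 0.65, adjusted p = 1.80e-06) and in 2MWT-N 4.44 (SE 0.88, adjusted p = 0.000114). Among the lpa lines the gene was a DEG higher at stage 2 than at stage 1 in 1mlpa, with 21, 13 and 21 counts at stage 2, against 1, 0 and 0 counts at stage 1 (log2 fold change 4.22, SE 1.19, adjusted p = 0.00447). That size rests on 1 count in dry seeds. At stage 3 the rise from stage 1 in 1mlpa did not pass the test (3.59, SE 1.25, adjusted p = 0.0139). In 3mlpa 24 counts at stage 2 faced 2 at stage 1, a ratio of 4.39 (exact 95% interval of counting error 1.09 to 38.3). This rise did not pass the edgeR test (adjusted p = 0.149), nor did that to stage 3 (adjusted p = 0.209). In 2mlpa the gene had 4, 5 and 0 counts at stage 1, 0 counts in all libraries at stage 2 and 15, 15 and 11 counts at stage 3. It was a DEG at stage 3 against stage 2 (adjusted p = 0.0017), as were 17.5% of genes in the higher direction, with a level at least 3.18-fold higher at stage 3.

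**Figure D3:**
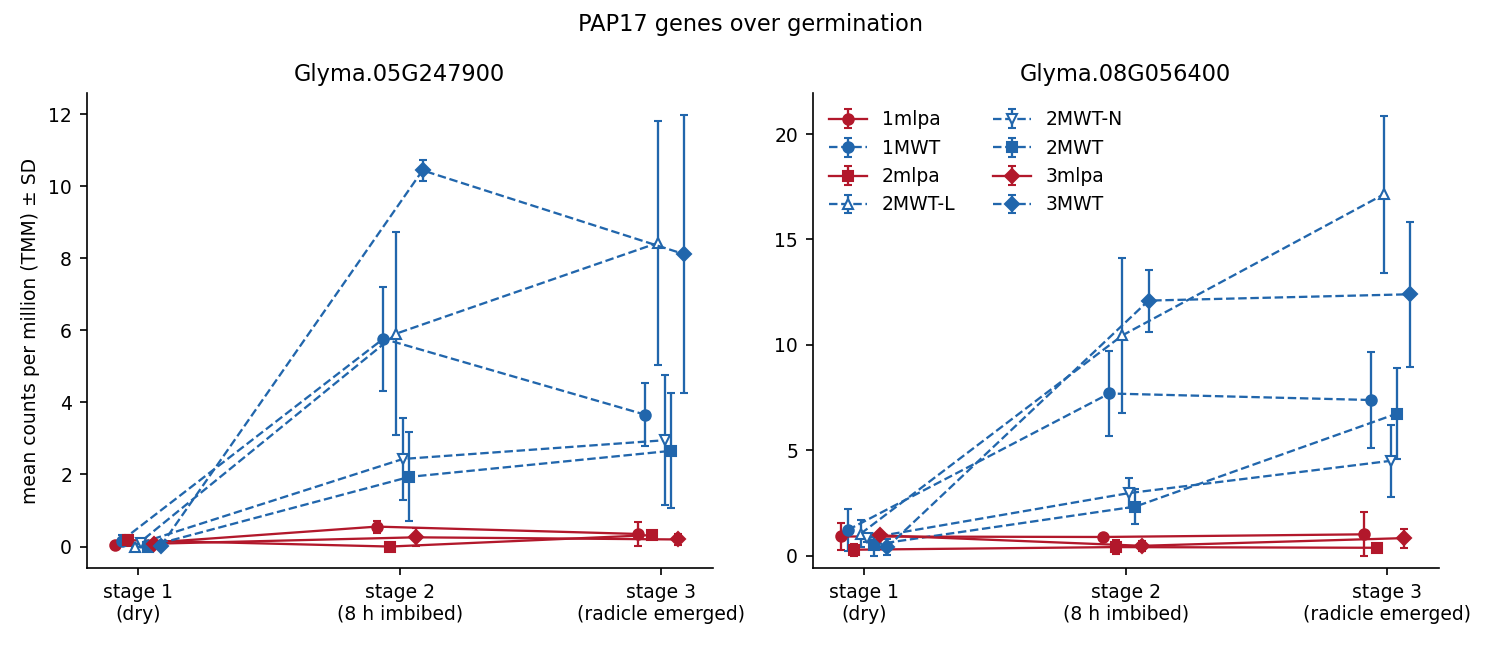
Mean level of each PAP17 gene in CPM with TMM scaling against stage for the 8 lines, with SD bars over 3 libraries (2 for 2MWT-N at stage 2). The normal lines (blue, dashed) reach 1.93 to 10.4 CPM for Glyma.05G247900 at stage 2, while the lpa lines (red, solid) stay at or below 0.553 CPM.

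Whether the lpa effect itself changed between stages was tested as an interaction. For Glyma.08G056400 the 3mlpa effect at stage 2 minus that at stage 1 was -5.99 on the log2 scale (SE 0.85, adjusted p = 0.00754), a test passed by 0.0192% of genes and lost with the replicate number as a block (adjusted p = 0.0251), and at stage 3 minus stage 1 it was -5.19 (SE 0.83, adjusted p = 0.00171), passed by 1.13%. The medians over all genes of these 2 differences were -0.16 and -0.20. In 1mlpa the corresponding values were -2.75 (SE 0.98, adjusted p = 0.136) and -2.46 (SE 0.96, adjusted p = 0.121), where 0.622% and 2.51% of genes passed, and in 2mlpa, against the mean of its 3 normal lines, -1.85 (SE 0.87, adjusted p = 0.189) and -2.95 (SE 0.89, adjusted p = 0.05). For Glyma.05G247900 the interaction passed in 2mlpa between stages 1 and 2 (adjusted p = 0.000877) and between stages 1 and 3 (adjusted p = 0.00977), tests passed by 1.65% and 0.861% of genes, with no size given because groups at 0 enter it. The second of these was lost with RLE factors (adjusted p = 0.0136) and with the block (adjusted p = 0.0126). In 1mlpa the interaction of this gene against stage 1 did not pass at stage 2 (adjusted p = 0.919) or stage 3 (adjusted p = 0.91), nor in 3mlpa (adjusted p = 0.179 and 0.111). Between stages 2 and 3 the interaction did not pass for either gene in any lpa line (adjusted p at least 0.0781), where 0.123% of genes passed in 1mlpa, 0.141% in 3mlpa and 0.21% in 2mlpa.

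Ordered by mean level, the 24 groups of Glyma.05G247900 began with 3MWT at stage 2 (10.4 CPM), 2MWT-L at stage 3 (8.43 CPM) and 3MWT at stage 3 (8.11 CPM), and all 10 normal groups of stages 2 and 3 came before any other group. Neighbours in this order overlapped everywhere but between 2MWT at stage 2, with 1.93 ± 1.24 CPM, and 1mlpa at stage 2, with 0.553 ± 0.164 CPM (SD, n = 3 each). The order of Glyma.08G056400 began with 2MWT-L at stage 3 (17.1 CPM) and 3MWT at stages 3 (12.4 CPM) and 2 (12.1 CPM), and again the 10 normal groups of stages 2 and 3 came first. Its only neighbours that did not overlap were 2MWT-N at stage 3 and at stage 2.

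Per kilobase of exon, Glyma.08G056400 was the more abundant of the pair in the normal lines at stages 2 and 3. Glyma.05G247900 made up 12% to 46.9% of their summed level per kilobase in the 29 normal libraries of stages 2 and 3, with a median of 32.3%, and was below Glyma.08G056400 in all 29. In the 2mlpa libraries of stage 3 the share of Glyma.05G247900 was 30.0% to 53.9%. The share depends on the length used, which joins all exon records of a gene. Those of Glyma.05G247900 include 1 of 816 bases that spans shorter exons and the gaps between them. By counts alone it was above Glyma.08G056400 in 2MWT replicates 1 (58 against 51) and 3 (117 against 110) at stage 2. The log2 ratio of Glyma.05G247900 to Glyma.08G056400, from counts with 0.5 added, was -1.13 ± 0.70 in 3mlpa, against -0.21 ± 0.14 in 3MWT, at stage 2, and -2.07 ± 0.73 in 3mlpa, against -0.72 ± 0.69 in 3MWT, at stage 3 (SD, n = 3 each). In 2mlpa the ratio was -4.36 ± 1.2 at stage 2, where the gene was at 0 and the added 0.5 sets the value, against -0.91 ± 0.55 in 2MWT-L, -0.34 ± 0.35 in 2MWT-N (n = 2) and -0.39 ± 0.91 in 2MWT. At stage 3 it was -0.15 ± 0.70 in 2mlpa, against -1.08 ± 0.26 in 2MWT-L, -0.71 ± 0.35 in 2MWT-N and -1.57 ± 0.83 in 2MWT (SD, n = 3 each). In 1mlpa it was -0.69 ± 0.25 at stage 2, against -0.41 ± 0.30 in 1MWT, and -1.32 ± 0.51 at stage 3, against -0.99 ± 0.15 in 1MWT. The exact two-sided permutation test over libraries gave p = 0.1 for 6 of 10 comparisons, the smallest p that 3 against 3 or 3 against 2 libraries allow, and 0.2 to 0.4 for the others (0.167 to 0.4 after Benjamini-Hochberg adjustment over the 10). The test could therefore not reach 0.05 in any of these comparisons and does not decide whether the ratio changed.

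**Figure D4:**
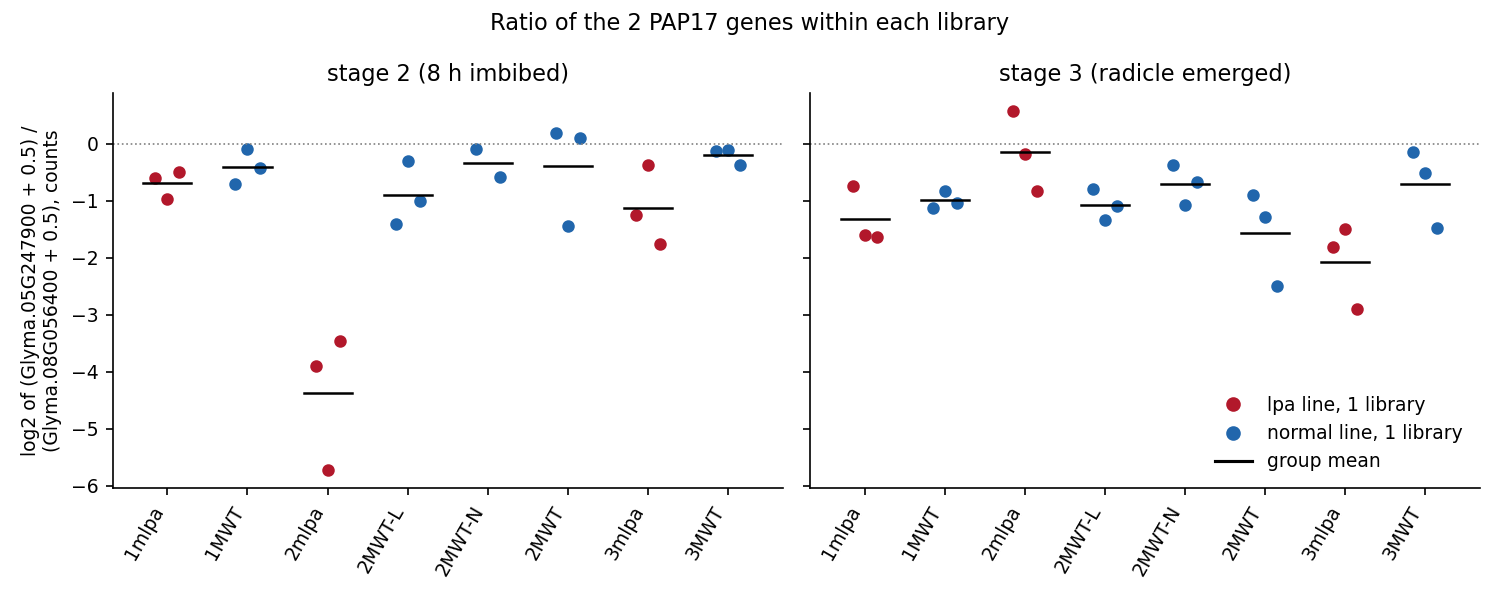
Log2 ratio of Glyma.05G247900 to Glyma.08G056400 within each library, from counts with 0.5 added, by line at stages 2 and 3, with group means as lines. The lowest group is 2mlpa at stage 2, at -4.36, where Glyma.05G247900 had 0 counts, and the means of the other groups lie between -2.07 and -0.15.

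Each gene was the other's nearest match in profile. Pearson's r of log2(CPM + 1) was 0.957 over the 36 Mips and Mips-MRP libraries and 0.937 over 35 MRP libraries, the first rank among 30185 genes for either. These libraries share stages and lines as well as depth, so the value describes a common course. The next closest to Glyma.05G247900 were Glyma.06G058700, Glyma.02G051400, Glyma.12G013200 and Glyma.13G113000, with an r of 0.882, 0.856, 0.850 and 0.840 in the subset where it was smaller. Those closest to Glyma.08G056400 were Glyma.13G113000, Glyma.12G065500, Glyma.06G058700 and Glyma.06G058800, with 0.877, 0.870, 0.847 and 0.830. Over the 10 lpa comparisons of stages 2 and 3 these genes were DEGs lower in 2 (Glyma.06G058800) to 9 (Glyma.12G013200) of them, against 10 for each PAP17 gene. Of all genes, 0.246% to 3.34% were DEGs lower in each of these comparisons. The genes were picked by likeness over the same libraries, so lower levels in lpa lines are partly built into the choice. Glyma.12G013200, for example, had 29.1 ± 4.12 CPM in 3mlpa and 104 ± 8.73 CPM in 3MWT, both imbibed seed (SD, n = 3 each).

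The study groups PAP17 with a pair of GDPD1 genes, whose product splits glycerophosphodiesters derived from phospholipids. Glyma.19G098500 was a DEG lower in all 10 lpa comparisons of stages 2 and 3 and in 2 of 5 at stage 1, and Glyma.16G052000 in 4 of 5 at stage 1, 4 of 5 at stage 2 and 1 of 5 at stage 3. In total 4 genes were DEGs lower in all 5 comparisons at both stages, the 2 PAP17 genes, Glyma.19G098500 and Glyma.11G082500, the last of which was noted after its values were seen. Unlike PAP17, Glyma.19G098500 was well above the floor in dry seeds, with 15.6 to 81.7 CPM in lpa and 28.3 to 286 CPM in normal libraries. Glyma.08G092300, a C2H2 transcription factor gene that the study's network linked to these genes, was a DEG lower in 1mlpa at stage 1 (log2 fold change -2.26, SE 0.49, adjusted p = 0.00279) and did not pass the test in any lpa comparison of stages 2 and 3 (adjusted p at least 0.136), with 0.736 to 1.75 CPM in lpa and 0.637 to 2.28 CPM in normal libraries at stage 2, and 0.568 to 1.25 CPM (median 0.910) in lpa and 0.880 to 2.15 CPM (median 1.59) in normal libraries at stage 3.

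Markers of seed maturation differed between lpa and normal lines in part. The study named these genes as differentially expressed network targets from these same libraries, so their calls are not independent evidence. The summed level of 6 LEA genes, which encode late embryogenesis abundant proteins of dry seeds, was 12751 to 21458 CPM in lpa and 7176 to 14266 CPM in normal libraries at stage 2, and 208 to 1982 CPM in lpa and 166 to 977 CPM in normal libraries at stage 3, with none of the 6 at 0. Of the 6, 3 were DEGs higher in 1mlpa at stage 2 (1.98% of all genes) and 2 at stage 3 (4.21%), 2 in 3mlpa at stage 3 (2.89%) and 2 in 2mlpa against 2MWT-L at stage 2 (2.9%), and none passed in the other 6 lpa comparisons of stages 2 and 3. Storage protein transcripts (4 genes) summed to 4431 to 6571 CPM in 2mlpa at stage 2, against 319 to 1041 CPM in 2MWT-L, 1061 to 1270 CPM in 2MWT-N and 796 to 1782 CPM in 2MWT. Of the 4, 4 were DEGs higher against 2MWT-L (2.9% of all genes), 1 against 2MWT-N (0.319%) and 3 against 2MWT (0.552%). In dry seeds all 4 were DEGs higher in 2mlpa against 2MWT-L (4.54% of all genes), 2MWT-N (1.28%) and 2MWT (1.25%). Neither PAP17 gene passed the test in dry seeds. At stage 3 none of the 4 passed in 2mlpa, and 1 was a DEG higher in 3mlpa (2.89%). At stage 2 none passed in 1mlpa, with 122 to 207 CPM, against 127 to 259 CPM in 1MWT (3 tested). None passed in 3mlpa either, with 272 to 429 CPM, against 205 to 266 CPM in 3MWT. The part of these differences in the PAP17 results was not tested. In tissue samples of this kind, fewer cells that express a gene and less transcript per cell cannot be told apart.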

How the data were processed

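Raw counts of read pairs per gene were used as deposited by the authors in 2 tables, which held the MRP libraries and the remaining ones; 0 value columns were left unassigned. Per the methods and the file headers, the authors used Skewer for trimming, STAR 2.5.2b for alignment to Wm82.a2.v1 and featureCounts 1.5.1 for unstranded counting of pairs with both ends mapped on exons. Multiply mapped reads and reads shared by overlapping genes were not counted. The authors' own tests used DESeq2 1.22.2.

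The tests were edgeR quasi-likelihood F tests with TMM factors (R 4.3.3, edgeR 4.0.16, limma 3.58.1), in 1 fit per subset (18, 36 and 18 libraries) and a group for each line at each stage. A gene entered with more than 10 normalized counts on average, which left 31682 in Mips, 31363 in MRP and 31307 in Mips-MRP, with Benjamini-Hochberg adjustment over all of them. The Mips and Mips-MRP effects were compared in 1 fit of 36 libraries and 31615 genes. The SE was taken from F as |log2 fold change| over its square root. CPM values used TMM factors over all 72 libraries, whose medians were 0.558, 1.24 and 1.58 at stages 1, 2 and 3. Replicates are separate seed samples of 1 line, so p values measure the spread within a line. Intervals and floors cover counting error only. The code was tested on simulated counts of single pairs of an lpa and a normal line at stage 2, with changes placed in well-counted genes only. Groups near the floor, stage contrasts and interactions were not covered.

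Both members, the mutated genes, the GDPD1 genes, Glyma.08G092300 and the 5 genes most alike to each member (ranked by the smaller correlation of 2 library sets) are named. The members, lists and tests were chosen with earlier results of these data known. Alternatives were RLE and upper-quartile factors, DESeq2 1.42.0, no filter, the replicate number as a block, 1 comparison at a time, each library left out, and, added after seeing the data, library totals without TMM factors for the stage contrasts. Other genes of phosphate homeostasis by annotation, promoter motifs and sequences were not analysed here.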

Additional observations from a re-analysis of the deposited data

Results flagged for a closer look

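The difference between lpa and normal lines in the PAP17 genes changed between stages by an interaction test in 4 cases. For Glyma.08G056400 the 3mlpa effect differed by -5.99 on the log2 scale between stages 2 and 1 and by -5.19 between stages 3 and 1. For Glyma.05G247900 the 2mlpa effect differed between stages 2 and 1 (edgeR, adjusted p = 0.000877) and between stages 3 and 1 (adjusted p = 0.00977). The first and the last of these 4 did not pass with the replicate number as a block (adjusted p = 0.0251 and 0.0126), nor the last with RLE factors (adjusted p = 0.0136). At stage 1 both genes were near the floor in all lines, with at most 6 counts of Glyma.05G247900 and 25 of Glyma.08G056400 in a library.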

How the results depend on the processing

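At stages 2 and 3 all 20 lpa differences of the pair kept their direction in every alternative. They were also calls with RLE factors, with DESeq2 and with no filter, as were the 8 of the Mips and Mips-MRP subsets with upper-quartile factors, which could not be computed for the MRP subset because the upper quartile of the near-empty library is 0. With the replicate number as a block, which the labels do not tie to a shared batch (correlations of same-numbered libraries -0.34 to 0.31), 1 call was lost, Glyma.05G247900 in 2mlpa against 2MWT-N at stage 3 (-3.13, adjusted p = 0.0113). Under the replicate block the interaction of Glyma.08G056400 in 3mlpa between stages 2 and 1 was -6.0 (adjusted p = 0.0251), that of Glyma.05G247900 in 2mlpa between stages 3 and 1 had an adjusted p of 0.0126 (0.0136 with RLE factors), and the rise of Glyma.08G056400 in 2MWT-N between stages 1 and 2 was 1.75 (adjusted p = 0.0105). The cause was not tested. Each comparison on its own 6 libraries lost Glyma.05G247900 in 2mlpa at stage 3 against 2MWT (-3.06) and 2MWT-N (-3.22), with fewer samples, and gave no value for stage 1 where the gene fell under the filter.

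With 1 library left out the log2 fold change of Glyma.08G056400 ranged from -3.29 to -2.91 and from -4.14 to -2.41 in 1mlpa at stages 2 and 3, from -3.42 to -2.12 against 2MWT and from -3.78 to -2.47 against 2MWT-N in 2mlpa at stage 2. That of Glyma.05G247900 ranged from -3.47 to -2.73 against 2MWT and from -3.48 to -2.57 against 2MWT-N in 2mlpa at stage 3. The stage 1 values of Glyma.08G056400 changed sign, from -1.03 to 0.44 in 1mlpa (0.44 without 1MWT replicate 1) and from -2.20 to 0.050 in 2mlpa against 2MWT (0.050 without 2MWT replicate 2).

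Between stages, scaling by library totals alone changed no call in the normal lines. In the lpa lines it made calls of the rise between stages 1 and 3 of Glyma.05G247900 in 1mlpa (5.16) and 3mlpa (adjusted p = 0.00819) and of Glyma.08G056400 in 1mlpa (2.14). Differences that were not calls changed sign, with Glyma.08G056400 at 0.14 in 1MWT between stages 2 and 3, 0.13 and 1.41 in 3mlpa between stage 1 and stages 2 and 3, and 0.43 in 2mlpa between stages 2 and 3 (0.51 with RLE factors), Glyma.05G247900 at 0.079 in 3mlpa between stages 2 and 3, and Glyma.08G056400 at -0.023 in 1mlpa between stages 1 and 2 with RLE factors. Counts at stage 1 were too low to show a difference of moderate size.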
